A study of Mus musculus with 12 samples.

Results

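The genes described here make up the protein folding and degradation machinery of the endoplasmic reticulum (ER): chaperones with their helpers, enzymes that form or rearrange disulfide bonds, and genes that send misfolded proteins to the proteasome. The list named 42 genes, and 39 of them could be matched by symbol to a probe set that carried exactly that one gene, out of 22180 genes measured. They comprised 13 of 15 chaperones and folding helpers, 12 of 12 disulfide enzymes and 14 of 15 degradation genes; Sdf2, Erp29 and Ube2g2 had no such probe set. Ero1l and Ero1lb appear under their present symbols, Ero1a and Ero1b. RNA came from primary aortic smooth muscle cells of the inbred mouse strain C57BL/6J, with no genetic change stated, at passage 3 to 4 in DMEM medium with 10% fetal calf serum. The 6 arrays of one group came from cells kept in 0.3 g/l glucose (1.7 mM) and the 6 of the other from cells in 4.5 g/l (25 mM). The culture time was given as 14 days in the series text and as 1 week in the sample labels, and neither states the age of the mice or whether replicates 1 to 6 came from separate cultures or animals. The p-values thus reflect only how far these samples scatter, and that scatter may be technical. Values are log2 RMA values from an Affymetrix whole-transcript array, where a difference of 1 is a 2-fold change.

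Proteins that enter the secretory pathway are folded in the ER lumen by Hspa5 (BiP) and Hsp90b1 (GRP94), by the lectin chaperones calnexin and calreticulin, and by protein disulfide isomerases that are kept oxidised by the Ero1 oxidases. Proteins that fail to fold are recognised by lectins such as Os9 and Edem1, passed through a membrane complex around Sel1l and the ubiquitin ligase Syvn1, pulled out by Vcp and degraded in the cytosol. When unfolded proteins build up, the sensors Atf6, Ern1 (IRE1) and Eif2ak3 (PERK) start the unfolded protein response (UPR), which raises transcription of many of these genes. Part of that induction runs through the ER stress response element (ERSE), a promoter sequence bound by NF-Y and Atf6. Vascular smooth muscle cells secrete collagen and elastin, and so pass much protein through the ER.

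One array stood apart. Replicate 4 of the 0.3 g/l group correlated with arrays of its own group by at most 0.982 and with a 4.5 g/l array by 0.985, over all probe sets, while correlations within groups ran from 0.979 to 0.990. Over the 39 genes its mean log2 value was 9.48. That is inside the range of the 4.5 g/l group, 9.45 to 9.65, and below its 5 companions at 10.36 to 10.43. For 37 of the 39 genes this array lay nearer to the mean of the 4.5 g/l arrays than to that of the other 0.3 g/l arrays, which was so for 60.8% of all genes. It was kept in the fit, and values without it are given beside the results. In bulk cultures, fewer cells of a type and less RNA per cell cannot be told apart.

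ER folding and degradation genes were lower in 4.5 g/l than in 0.3 g/l glucose. Of the 39 genes, 30 fell and 1 rose (limma with Benjamini-Hochberg adjustment over all 22180 genes, adjusted p below 0.05), where 8.52% of all genes fell and 7.01% rose. The median log2 difference was -0.58, against -0.0069 over all genes, and 35 of the 39 differences were negative. Of the 30, 10 fell at least 2-fold (0.546% of all genes did). All 13 measured chaperones fell, with a median of -0.99, as did 9 of 12 disulfide enzymes, with a median of -0.49, and 8 of 14 degradation genes, with a median of -0.41. Without 0.3 g/l replicate 4, 33 fell and 1 rose (13.6% and 10.3% of all genes), and the median was -0.73. Every 4.5 g/l array was lower than all 6 arrays of 0.3 g/l for 4 genes (2.9% of all genes), and lower than the other 5 for 33 (11% of all genes). By ranks alone (exact rank-sum test, adjusted over all genes) 6 were lower (4.35% of all genes).

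**Figure D1:**
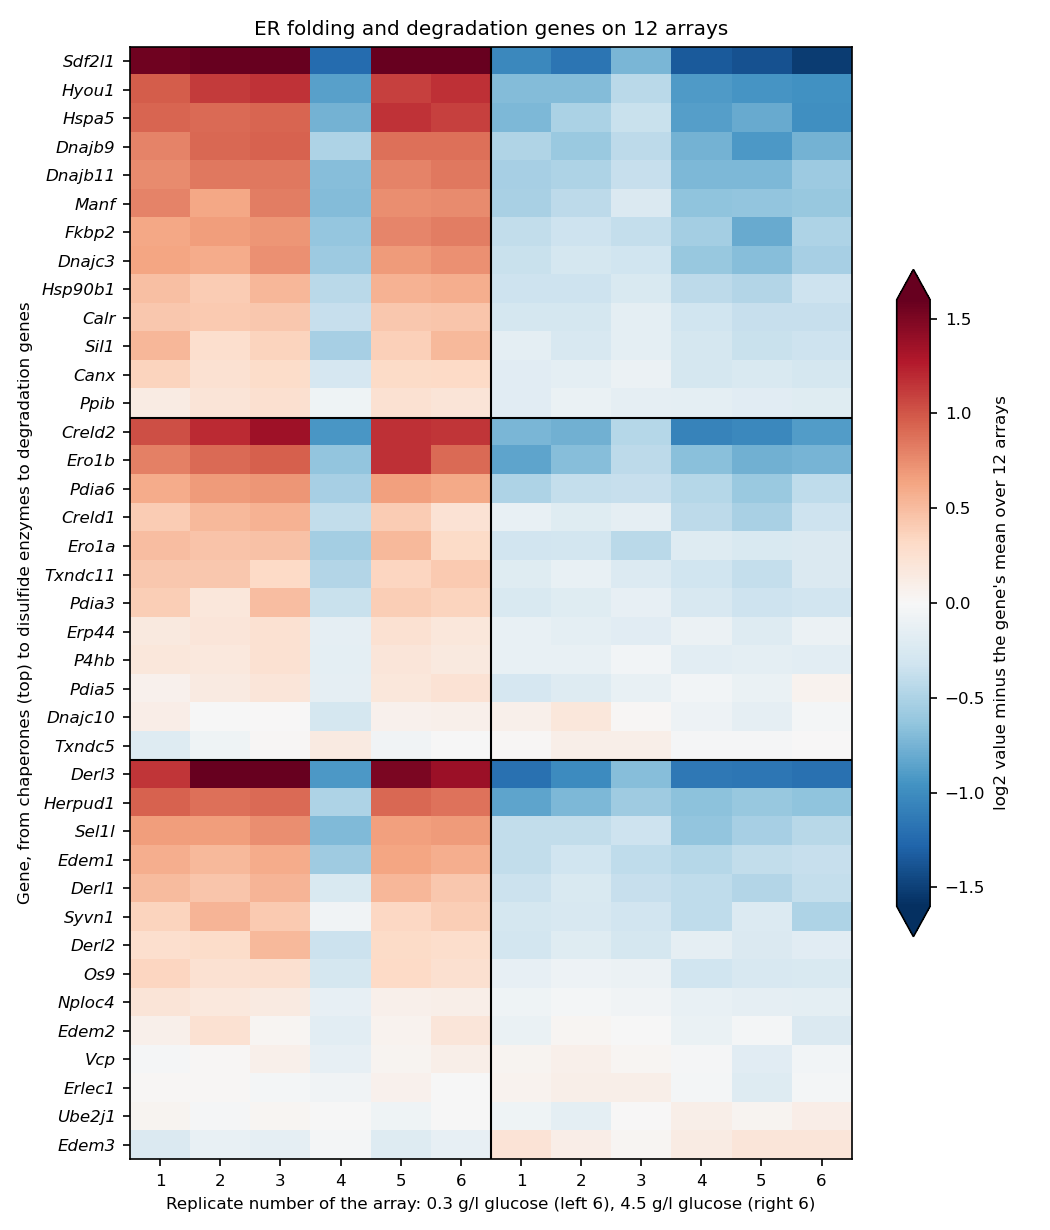
Heat map of the 39 genes (rows, by role and then by log2 difference) on the 12 arrays (columns); colour is the log2 value minus the gene's mean over all arrays. Most rows are red in 5 of the 0.3 g/l arrays and blue in the 4.5 g/l arrays and in 0.3 g/l replicate 4, and the lowest rows of each block are pale.

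The letters of the ERSE stood in the promoters of 10 of these genes. RefSeq promoter windows (GRCm38.p6, from 250 bases before to 50 after each annotated start) were at hand for 34 of the 39 genes. The motif, searched on both strands, was CCAAT, then 9 bases of any kind, then CCACG. It occurred in 0.119% of 32851 windows and in 29 of the 16990 measured genes that had a window (0.171%), and 10 of those 29 genes are ER genes of this list. All 10 fell, with log2 differences from -2.13 (Derl3) to -0.415 (Canx) and a median of -0.92. Because the list was chosen with earlier results of these data known, the fall of these 10 is no independent support for a link with the motif. Of the 24 genes with a window but without the motif 16 fell, with a median of -0.41 and a range over all 24 from -2.39 to 0.29. The gene with the largest fall of the 39, Sdf2l1 (-2.39), was among those without the motif, as were Dnajb9 (-1.31) and Fkbp2 (-0.99). Of the 19 genes with the motif that are not on this list, 3 fell and 1 rose, where 8.79% of all genes with a window fell. The 3, named after their values were seen, were Alg12, a mannosyltransferase of N-glycan assembly (-1.09 ± 0.17), the acetyl-CoA carboxylase Acacb (-0.38 ± 0.10) and the RNA-binding Hnrnpa3 (-0.29 ± 0.09); the 1 that rose was Spats2l (0.43 ± 0.13). The Alg12 and Creld2 windows overlap by 173 bases on opposite strands, so the motif in them is shared. The levels of the 19 genes were not examined, and a gene that is not expressed cannot fall.

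The promoter of Hspa5, whose product is the main ER chaperone and the regulator of the UPR sensors, is shown up to the annotated start as a textbook ERSE promoter. The 250 bases lie at chr2:34771840-34772089 on the plus strand, with the match in capitals. Only exact matches were searched for, so any near copy of the motif stays in lower case.
Hspa5: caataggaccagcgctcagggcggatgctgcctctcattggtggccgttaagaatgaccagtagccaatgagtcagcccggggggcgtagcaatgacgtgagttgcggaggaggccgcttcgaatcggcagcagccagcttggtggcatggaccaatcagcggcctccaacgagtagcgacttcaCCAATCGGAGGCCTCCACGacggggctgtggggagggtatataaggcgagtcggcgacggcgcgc

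The ERSE matches of the other 9 genes are shown with 8 bases on either side, 5′ to 3′ on the strand of the gene, with the match in capitals; a match that starts with CGTGG lies on the opposite strand.
Hsp90b1 (chr10:86705630-86705664, minus strand): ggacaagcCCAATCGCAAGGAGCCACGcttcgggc
Hsp90b1 (chr10:86705525-86705559, minus strand): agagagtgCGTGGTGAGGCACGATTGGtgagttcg
Calr (chr8:84847067-84847101, minus strand): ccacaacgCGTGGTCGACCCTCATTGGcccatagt
Canx (chr11:50325792-50325826, minus strand): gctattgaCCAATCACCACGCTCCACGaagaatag
Dnajc3 (chr14:118937819-118937853, plus strand): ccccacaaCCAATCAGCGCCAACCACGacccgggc
Pdia6 (chr12:17266483-17266517, plus strand): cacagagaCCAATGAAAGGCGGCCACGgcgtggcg
Creld2 (chr15:88819512-88819546, plus strand): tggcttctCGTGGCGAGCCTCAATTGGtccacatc
Ero1b (chr13:12565674-12565708, plus strand): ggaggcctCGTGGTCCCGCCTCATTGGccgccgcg
Derl3 (chr10:75893234-75893268, plus strand): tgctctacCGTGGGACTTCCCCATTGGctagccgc
Syvn1 (chr19:6046524-6046558, plus strand): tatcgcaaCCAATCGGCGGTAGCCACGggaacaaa

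The 11 matches began between 44 and 212 bases before the annotated start, 6 on the strand of the gene and 5 on the opposite strand. The 10 genes come from all 3 roles: 5 chaperones, 3 disulfide enzymes and 2 degradation genes. A match is a description of the letters and not evidence of binding, and the window shows nothing about sequence outside it.

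A related element, ERSE-II (ATTGG, any base, then CCACG, on both strands), occurred in 0.0365% of windows and in 2 ER genes, Herpud1 and Dnajb11, shown for comparison with the element above.
Herpud1 (chr8:94386369-94386395, plus strand): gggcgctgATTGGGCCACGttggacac
Dnajb11 (chr16:22857844-22857870, plus strand): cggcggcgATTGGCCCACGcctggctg
Both genes fell, by 1.34 and by 1.13 on the log2 scale, and both were counted above among the genes without the ERSE. The Herpud1 match began 52 bases before the annotated start and the Dnajb11 match 7 bases after it. Of the 7 measured genes with ERSE-II that are not on this list, 2 fell, where 8.79% of all genes with a window fell. TGACGTGG, a core of the element bound by Atf6 and Xbp1 alike, occurred in 0.676% of windows and in 4 of the ER genes (Ube2j1, Vcp, Txndc5 and Txndc11). Txndc11 fell, while Ube2j1, Vcp and Txndc5 did not pass the test. All 4 were likewise counted among the genes without the ERSE. Of the 143 measured genes with this core that are not on this list, 19 fell (13.3%) and 6 rose.

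Among the chaperones, Hspa5 lay at 9.70 in its lowest 0.3 g/l array, at a median of 11.38 and at 11.60 in the highest, and at 9.47, 9.69 and 10.09 in 4.5 g/l. The lowest of those 0.3 g/l arrays was replicate 4; the other 5 were at 11.35 or higher, above every 4.5 g/l array. The difference was -1.42 ± 0.27 (SE, n = 6 and 6; limma adjusted p = 0.00308), a 2.67-fold fall, and 3.27-fold without replicate 4. Hsp90b1, the ER member of the HSP90 family, had 12.33, 13.26 and 13.33 (lowest, median, highest) in 0.3 g/l against 12.28, 12.42 and 12.51 in 4.5 g/l. Its log2 difference was -0.71 ± 0.14 (limma adjusted p = 0.00489), again with only replicate 4 among the 4.5 g/l values.

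Co-factors of Hspa5 fell as well, Sdf2l1 by the most of the 39 genes. Sdf2l1, a luminal protein that works with Hspa5 and its J-domain partners, had 7.62, 10.53 and 10.62 (lowest, median, highest) in 0.3 g/l and 7.34, 7.60 and 8.13 in 4.5 g/l. It was 5.26-fold lower in 4.5 g/l (log2 difference -2.39 ± 0.43; limma adjusted p = 0.00220), and 7.36-fold without replicate 4, the array at 7.62. Hyou1 (GRP170) exchanges the nucleotide of Hspa5 and fell 2.92-fold, from a mean of 11.29 ± 0.81 (SD, n = 6) to 9.74 ± 0.21. Sil1, the other nucleotide exchange factor of Hspa5 in the ER, fell 1.42-fold (limma adjusted p = 0.0329), and this call was lost on leaving out any one of 9 arrays. The J-domain proteins Dnajb9 (ERdj4), Dnajb11 (ERdj3) and Dnajc3 (p58IPK), which stimulate the ATPase of Hspa5, fell by 2.47-fold, 2.19-fold and 1.90-fold. Manf, a secreted ER protein that binds Hspa5, fell 2.02-fold, from 7.35 ± 0.59 to 6.34 ± 0.16. In each of these 7 genes the 5 other 0.3 g/l arrays lay above every 4.5 g/l array, and replicate 4 lay within the 4.5 g/l range or, for Manf and Sil1, below it.

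Both lectin chaperones and both prolyl isomerases of the list fell. Calreticulin, Calr, the luminal lectin chaperone, had 12.19, 13.00 and 13.01 (lowest, median, highest) in 0.3 g/l and 12.19, 12.26 and 12.40 in 4.5 g/l, a log2 difference of -0.60 ± 0.13. Its membrane-bound relative calnexin, Canx, had a log2 difference of -0.415 ± 0.10. In both genes 0.3 g/l replicate 4 lay at the low end of the 4.5 g/l values and the other 5 arrays lay above them. Of the peptidyl-prolyl isomerases, which turn proline bonds, Fkbp2 fell 1.98-fold, and Ppib (cyclophilin B), which also takes part in collagen folding, fell 1.25-fold. Ppib had 11.54, 11.81 and 11.86 in 0.3 g/l and 11.42, 11.44 and 11.50 in 4.5 g/l (limma adjusted p = 0.00354). It was the one chaperone gene whose groups did not overlap with all 12 arrays, replicate 4 included.

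**Figure D2:**
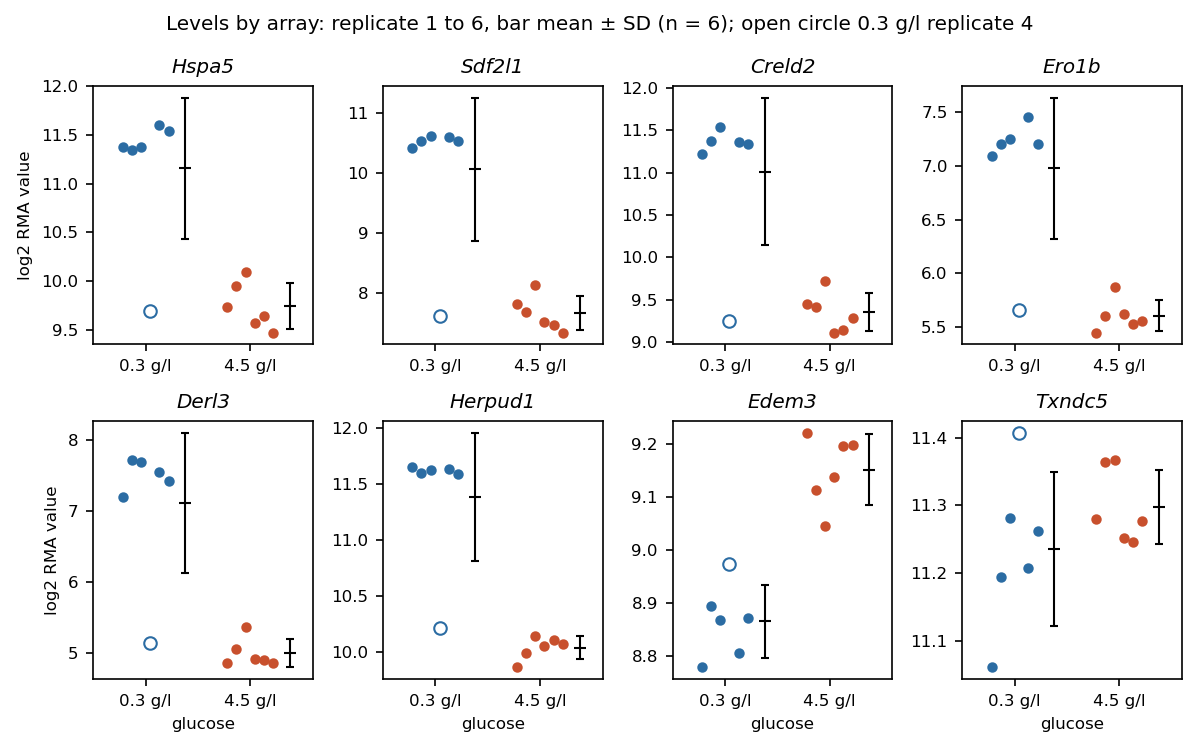
Levels of 8 of the genes by array (y axis, log2 RMA value; x axis, glucose), with points in the order of replicates 1 to 6, the mean ± SD (n = 6) beside them and 0.3 g/l replicate 4 as an open circle. Hspa5, Sdf2l1, Creld2, Ero1b, Derl3 and Herpud1 are high in 5 of the 0.3 g/l arrays, Edem3 is higher in all 6 arrays of 4.5 g/l, and the Txndc5 groups overlap.

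Disulfide enzymes spread from a 3.14-fold fall to differences within their errors. Creld2, an ER protein induced by ER stress with disulfide isomerase activity, had 9.25, 11.34 and 11.54 (lowest, median, highest) in 0.3 g/l and 9.12, 9.35 and 9.72 in 4.5 g/l. Its log2 difference was -1.65 ± 0.32 (limma adjusted p = 0.00323), and -2.01 without replicate 4, the array at 9.25. Ero1b, an oxidase that passes electrons from disulfide isomerases to oxygen, had 5.66, 7.20 and 7.46 in 0.3 g/l and 5.45, 5.58 and 5.88 in 4.5 g/l. It fell 2.59-fold (limma adjusted p = 0.00175), and its relative Ero1a fell 1.48-fold (limma adjusted p = 0.0216). The Ero1a call was lost on leaving out any of 4 arrays of 0.3 g/l (replicates 1, 2, 3 or 5).

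Of the protein disulfide isomerases, Pdia6 fell most, 1.87-fold, from 12.17 ± 0.48 to 11.27 ± 0.08 (SD, n = 6). Pdia3 (ERp57), the partner of calnexin and calreticulin, fell 1.40-fold. P4hb, the founding disulfide isomerase and also the beta subunit of collagen prolyl 4-hydroxylase, had a log2 difference of -0.26 ± 0.07 (limma adjusted p = 0.0201), a call lost without 0.3 g/l replicate 3. Erp44, which returns proteins from the early Golgi to the ER, fell 1.22-fold, Creld1 1.49-fold and the membrane thioredoxin protein Txndc11 1.41-fold; the Txndc11 call was lost on leaving out any one of 6 arrays. The other disulfide enzymes did not pass. Pdia5 differed by -0.23 ± 0.08 (limma adjusted p = 0.0583) and passed with -0.28 once 0.3 g/l replicate 4 was left out (limma adjusted p = 0.00571). Dnajc10 (ERdj5), a reductase that opens disulfide bonds before degradation, differed by 0.010 ± 0.078, a sign that turned without replicate 4 (-0.045). Txndc5 had 11.06, 11.24 and 11.41 in 0.3 g/l and 11.25, 11.28 and 11.37 in 4.5 g/l, so its groups overlapped, with replicate 4 the highest array, and the difference was 0.06 ± 0.06 (limma adjusted p = 0.604).

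**Figure D3:**
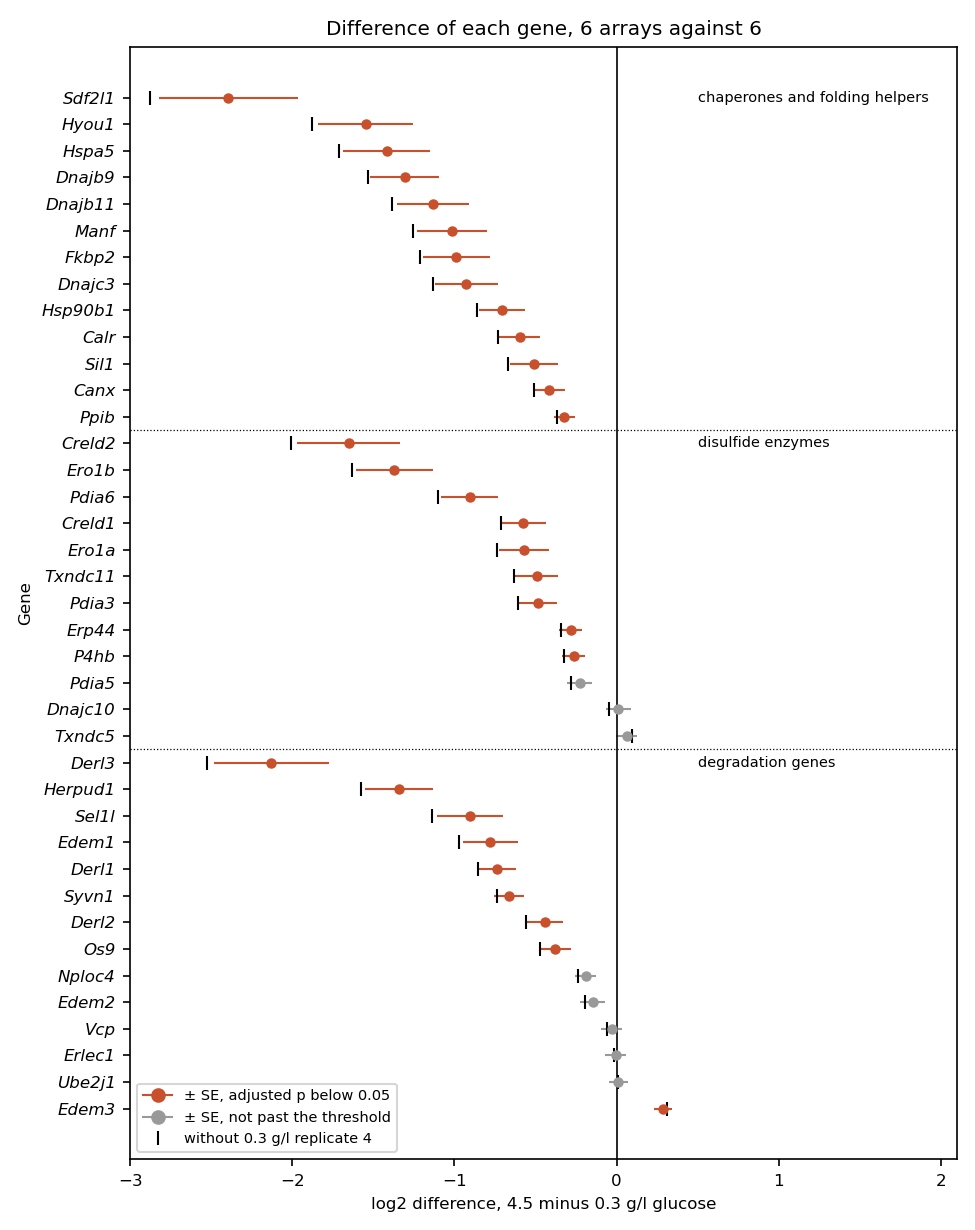
Log2 difference (x axis, 4.5 minus 0.3 g/l glucose) of each of the 39 genes (y axis, by role), with bars of 1 SE; red genes passed an adjusted p of 0.05, grey ones did not, and black ticks give the value without 0.3 g/l replicate 4. All 13 chaperones lie left of 0, Edem3 is the one red gene to the right, and for every gene that fell the tick lies farther from 0 than the point.

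Of the genes of ER-associated degradation, Herpud1, Sel1l, Syvn1 and the derlins fell, while 5 others did not pass. Herpud1, a membrane scaffold of the Syvn1 complex, had 10.22, 11.61 and 11.65 (lowest, median, highest) in 0.3 g/l and 9.87, 10.07 and 10.15 in 4.5 g/l. These groups did not overlap with all 12 arrays, since replicate 4, at 10.22, stayed just above the highest 4.5 g/l array. The fall was 2.54-fold (log2 difference -1.34 ± 0.21; limma adjusted p = 0.000915). Sel1l, the adaptor that binds the ligase, fell 1.87-fold, and the ligase Syvn1 (HRD1) itself fell 1.58-fold, from 8.45 ± 0.21 to 7.79 ± 0.10 (SD, n = 6; limma adjusted p = 0.000468). Syvn1 and Derl1 likewise had groups that did not overlap.

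Derlins, membrane proteins through which substrates leave the ER, all fell. Derl3 had 5.14, 7.49 and 7.71 in 0.3 g/l and 4.86, 4.91 and 5.37 in 4.5 g/l, a 4.37-fold fall (limma adjusted p = 0.00134) that was 5.75-fold without replicate 4, the array at 5.14. In 4.5 g/l its mean of 4.99 was near 4.2, the bound of the dimmest 25% of genes. Derl1 fell 1.67-fold and Derl2 1.36-fold. A dimmer second probe set of Derl2 had a log2 difference of -0.30, against -0.44 for the one used.

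The lectins and mannose-trimming enzymes that pick or mark glycoproteins for degradation moved apart. Edem1 had 9.66, 10.80 and 10.85 in 0.3 g/l and 9.76, 9.83 and 9.91 in 4.5 g/l, a 1.71-fold fall (limma adjusted p = 0.00709). A dimmer second probe set of Edem1 had a smaller log2 difference, -0.32. Edem2, a mannosidase that starts the trimming, differed by -0.15 ± 0.07 and did not pass (limma adjusted p = 0.226), but passed with -0.20 once 0.3 g/l replicate 4 was left out (limma adjusted p = 0.0426). Edem3, which trims mannose further, rose: it had 8.78, 8.87 and 8.97 in 0.3 g/l and 9.05, 9.17 and 9.22 in 4.5 g/l, with no overlap, and a difference of 0.29 ± 0.06 (limma adjusted p = 0.00369). Os9, a lectin that hands glycoproteins to Sel1l, fell 1.30-fold (limma adjusted p = 0.0194), whereas the related lectin Erlec1 (XTP3-B) differed by -0.0057 ± 0.063.

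Vcp, Nploc4 and Ube2j1, which act on the cytosolic side, did not pass. The ATPase Vcp (p97), which pulls substrates from the membrane, had 10.64, 10.81 and 10.87 in 0.3 g/l and 10.59, 10.78 and 10.86 in 4.5 g/l. Its difference was -0.03 ± 0.06 (limma adjusted p = 0.825). Nploc4, a cofactor of Vcp, differed by -0.19 ± 0.06 (limma adjusted p = 0.0616), and passed with -0.24 once 0.3 g/l replicate 4 was left out (limma adjusted p = 0.00320). The ubiquitin-conjugating enzyme Ube2j1, anchored in the ER membrane, differed by 0.0099 ± 0.059.

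Related genes were compared within each array, so that a shift common to both genes of a pair cancels. The 10 pairs of homologous genes were drawn up after their values were seen, and some genes recur in several pairs. In each pair the first gene is the one with the lower difference, so all 10 differences of differences are negative by that order. The p-values below therefore describe chosen pairs and are no independent support for a difference. The p-values come from two-sided exact permutation tests over 924 assignments of the 12 arrays, adjusted over the 10 pairs; the smallest p they can give is 0.00216. Creld2 fell by 1.08 more than Creld1 on the log2 scale (difference of differences -1.08 ± 0.23, exact p = 0.00649, adjusted 0.00927), and by 1.29 more without 0.3 g/l replicate 4. Derl3 fell more than Derl1 (-1.39 ± 0.30) and than Derl2 (-1.69 ± 0.30), both with an exact p of 0.00433 (adjusted 0.00927). Ero1b fell more than Ero1a (-0.80 ± 0.14, exact p = 0.00433, adjusted 0.00927). Creld2, Derl3 and Ero1b have an ERSE match in their windows, Creld1, Derl2 and Ero1a have none, and Derl1 had no window. The part of the motif in these differences was not tested.

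The remaining 6 pairs differed as well. Edem1 parted from Edem3 by -1.07 ± 0.22 (exact p = 0.00649, adjusted 0.00927) and from Edem2 by -0.63 ± 0.16 (exact p = 0.0152, adjusted 0.0152), and Edem2 from Edem3 by -0.43 ± 0.09 (exact p = 0.00649, adjusted 0.00927). Os9 fell relative to Erlec1 by -0.37 ± 0.09 (exact p = 0.0130, adjusted 0.0144). Differences were smaller for Derl1 against Derl2 (-0.29 ± 0.05, exact p = 0.00216, adjusted 0.00927), where replicate 4 lay with its own group, and for Calr against Canx (-0.18 ± 0.04, exact p = 0.00866, adjusted 0.0108). Calr and Canx both have an ERSE match, Edem1, Edem2, Edem3 and Os9 have none, and Derl1 and Erlec1 had no window.

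**Figure D4:**
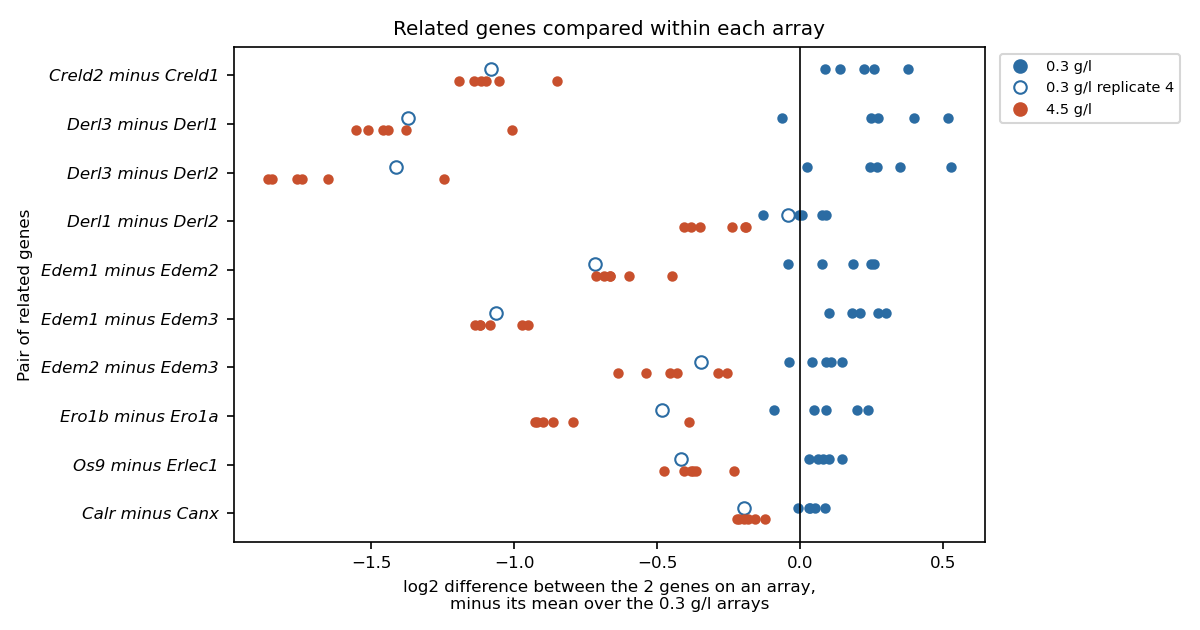
For each of the 10 pairs (y axis), the log2 value of the first gene minus that of the second on each array, less the mean of that quantity over the 0.3 g/l arrays (x axis). The first gene of each pair is the one with the lower log2 difference, so the common direction follows from how the pairs were written. In all pairs the 4.5 g/l arrays (red) lie left of 5 of the 0.3 g/l arrays (blue). The open point, 0.3 g/l replicate 4, lies among or beside the red points except in Derl1 minus Derl2.

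Signalling genes of the UPR were lower too. Of 16, 12 fell and 1 rose (8.52% and 7.01% of all genes did), with a median log2 difference of -0.50 against -0.0069 over all genes. The log2 difference of Trib3, a pseudokinase induced under stress, was -1.95 ± 0.23 (limma adjusted p = 0.000193). It was -0.61 ± 0.09 for the transcription factor Xbp1 (limma adjusted p = 0.000568) and -0.69 ± 0.10 for Atf4, a factor translated under stress (limma adjusted p = 0.000822). Creb3l2, a membrane-bound transcription factor, rose by 0.26 ± 0.07. The sensors Atf6, Ern1 and Eif2ak3, added after their values were seen, fell 1.63-fold, 1.53-fold and 1.25-fold. The mean of the 16 genes was 8.82 in 0.3 g/l replicate 4, against 9.42 to 9.48 in the other 5 arrays and 8.64 to 8.74 in 4.5 g/l.

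Other ER genes outside the list are given by their counts, to be read against the 8.52% of all genes that fell and the 7.01% that rose. In glycan trimming and glycoprotein folding, 5 of 12 fell and 2 rose (median -0.26); Uggt1, which reglucosylates unfolded glycoproteins so that they bind calnexin again, fell 1.34-fold, whereas its relative Uggt2 rose by 0.26 ± 0.07. The glucosidase Mogs and the cargo receptor subunit Mcfd2 fell 1.29-fold and 1.55-fold, and the mannosidase Man1a2 rose 1.16-fold. Of 14 further thiol oxidoreductases 1 fell and 2 rose (median 0.02), numbers near the shares over all genes. Qsox1, a sulfhydryl oxidase of the Golgi and secreted fluid, rose 1.52-fold (limma adjusted p = 0.000144), the peroxidase Gpx8 rose by 0.32 ± 0.07, and Qsox2 fell 1.17-fold. Of 15 other chaperones and co-chaperones 5 fell and 2 rose (median -0.06); those with the smallest p were the prolyl isomerase Fkbp11, 1.95-fold lower, Cnpy3, a co-chaperone of Toll-like receptors, 1.64-fold lower, and Cnpy4, 1.32-fold higher. Sec63, a J-domain protein of the translocon, fell by 1.21-fold and calmegin, Clgn, a relative of calnexin, rose by 0.36 ± 0.11. The other prolyl isomerases Fkbp7, Fkbp9, Fkbp14 and Ppic did not pass (log2 differences -0.06, -0.01, 0.14 and 0.25). Without 0.3 g/l replicate 4, Ppic passed as higher (0.32, limma adjusted p = 0.0095). Of 21 other degradation genes 7 fell and 0 rose (median -0.13), with the smallest p for Aup1 (log2 difference -0.26), Tmub2 (-0.28) and Selenos (-0.54), which is not the order of their sizes; in limma 1 gene, Rnf139, was higher at an unadjusted p under 0.05. Without 0.3 g/l replicate 4 the falls numbered 7, 2, 6 and 8 in these 4 lists and the rises 2, 2, 2 and 0, where 13.6% of all genes fell and 10.3% rose.

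Of 13 measured genes of collagen folding, 3 fell and 2 rose (8.52% and 7.01% of all genes), with a median log2 difference of 0.0094. The collagen chaperone Serpinh1 (HSP47) fell 1.30-fold (limma adjusted p = 0.000962), and the prolyl 3-hydroxylases P3h2 and P3h1 fell 1.81-fold and 1.34-fold. Tmem38b, an ER cation channel, rose 1.54-fold and the lysyl hydroxylase Plod2 rose by 0.31 ± 0.09. Without 0.3 g/l replicate 4, 4 fell and 4 rose (13.6% and 10.3% of all genes).

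Markers of other cell types were set beside these results. All 8 smooth muscle markers had means above the dimmest 25% of genes, and 6 of them rose (7.01% of all genes did). Their mean was 9.07 to 9.29 in the 5 other arrays of 0.3 g/l, 10.22 in replicate 4 and 10.59 to 10.79 in 4.5 g/l. The bound of the dimmest 25% of genes, 4.2, lies below every array median (4.92 to 5.05), so passing it does not show clear expression. All 8 endothelial markers passed it too, with means in 4.5 g/l from 5.41 (Kdr) and 5.45 (Tek) to 10.51 (Cdh5) and 11.28 (Emcn). Of these markers 1, Emcn, fell, and 3 fell without 0.3 g/l replicate 4 (8.52% and 13.6% of all genes). Their mean level was 8.21 to 8.30 in 5 arrays of 0.3 g/l and 7.71 in the remaining one, replicate 4. In 4.5 g/l it was 8.23 to 8.31 for replicates 1 to 3, and 7.54 to 7.58 for replicates 4 to 6. The ER genes averaged 9.56 to 9.65 over the former 3 arrays and 9.45 to 9.50 over the latter. Of 7 macrophage and 5 fibroblast markers none passed, where 15.5% of all genes passed in either direction. 4 of each kind were above the dimmest 25% of genes, with Cd68 the highest macrophage marker at 7.32 in 4.5 g/l. At an unadjusted p under 0.05 in limma, 0 macrophage markers and 1 fibroblast marker, Pdgfra, were found. Without 0.3 g/l replicate 4, Pdgfra passed as higher (log2 difference 0.44, limma adjusted p = 0.00510) and no macrophage marker passed. Without that array 10.3% of all genes rose. The part of the smooth muscle and endothelial markers in the ER result was not tested.

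**Figure D5:**
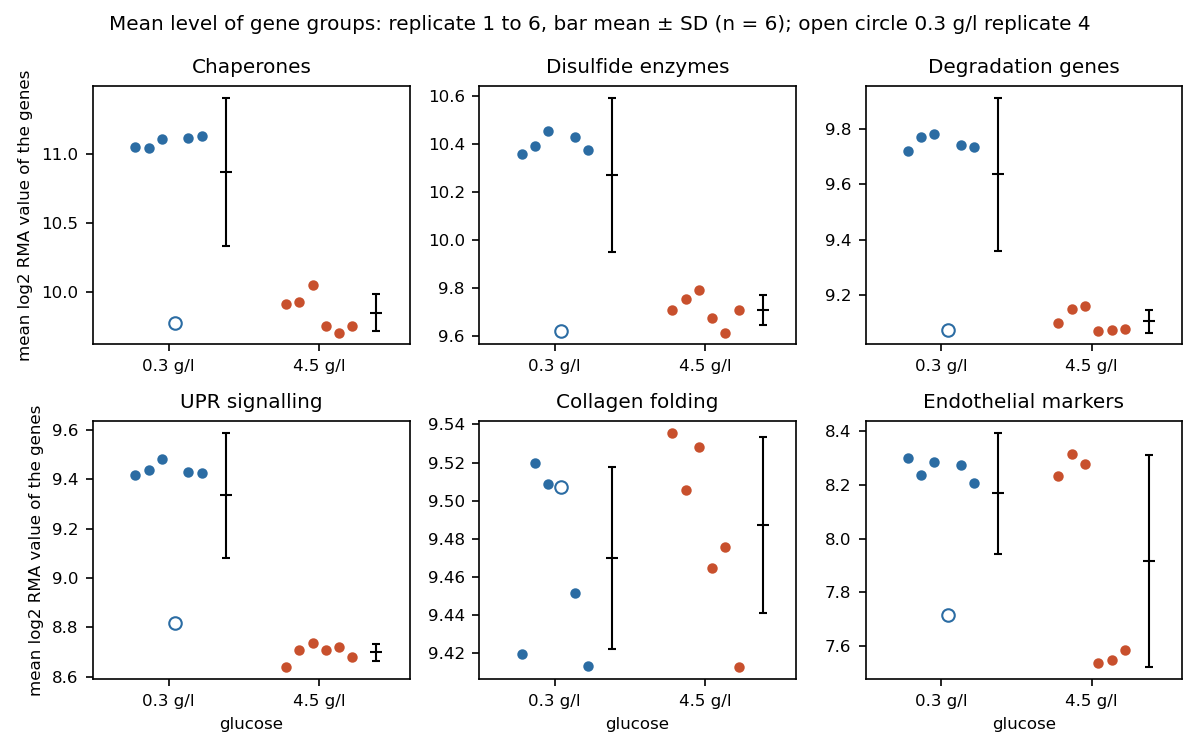
Mean log2 RMA value of 6 gene groups (y axis) on each array by glucose (x axis), replicates 1 to 6 in order, with the mean ± SD (n = 6) and 0.3 g/l replicate 4 as an open circle. The 3 ER groups and UPR signalling are low in 4.5 g/l and in 0.3 g/l replicate 4, collagen folding overlaps, and the endothelial markers are low in 4.5 g/l replicates 4 to 6.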

How the data were processed

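RNA of 12 samples of mouse aortic smooth muscle cells, 6 per glucose level, was measured on an Affymetrix array. The authors deposited log2 values per probe set, made with Affymetrix Expression Console and RMA, a method of background correction, quantile normalization and probe summary, per the submitters' processing notes; versions, scan dates and a genome build are not given in the sources used here. Quantile normalization can hide a change in total RNA per cell, and RMA can compress differences of dim genes. Of 41345 probe sets, 23521 carried 1 gene symbol in the platform annotation, 1814 several and 16010 none listed. Each of 22180 genes was represented by its probe set with the highest mean; 4 of the ER genes had more than 1. Groups were compared with limma 3.58.1 in R 4.3.3 (lmFit, eBayes, two-sided, Benjamini-Hochberg over all genes), after a test on simulated data. The 42 genes, their roles, the further ER lists and the alternatives were chosen with earlier results of these data known; all 42 genes were to be named, and from each further list the 3 with the smallest p per direction that passed. Other genes of those lists were named after their values were seen. The promoter search used RefSeq windows. Arrays have no read depth; their number limits precision (median SE of a log2 difference 0.0931). No columns were identical. Whether the replicate numbers pair the samples is not stated in the sources used here, and the main fit used no pairing.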

Additional observations from a re-analysis of the deposited data

Results flagged for a closer look

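In groups of 6 arrays, the lowest or highest value was compared with the range of its group (Dixon's criterion), over 39 genes and 3 role means in both groups, 84 groups in all, of which chance alone would flag about 1 in 20. It marked 35, and 34 of these were 0.3 g/l replicate 4, each time as the lowest array of its group; these share 1 array and are not independent. The mean of the chaperones was 9.78 in that array (11.04 to 11.13 in the other 5), of the disulfide enzymes 9.62 (10.36 to 10.45) and of the degradation genes 9.07 (9.72 to 9.78). Among chaperones, its log2 values were 9.70 for Hspa5, 12.33 for Hsp90b1, 12.19 for Calr, 11.97 for Canx, 9.11 for Dnajb9, 9.15 for Dnajb11, 10.42 for Dnajc3, 8.87 for Fkbp2, 9.65 for Hyou1, 6.15 for Manf, 7.62 for Sdf2l1 and 8.39 for Sil1. Disulfide enzymes in the same array lay at 8.14 for Creld1, 9.25 for Creld2, 10.31 for Dnajc10, 10.61 for Ero1a, 5.66 for Ero1b, 8.99 for Erp44, 11.75 for P4hb, 12.00 for Pdia3, 11.20 for Pdia6 and 7.69 for Txndc11. For degradation genes it gave 10.50 for Derl1, 6.79 for Derl2, 5.14 for Derl3, 9.66 for Edem1, 10.22 for Herpud1, 10.07 for Nploc4, 9.53 for Os9, 10.10 for Sel1l and 8.06 for Syvn1. Txndc5, Edem3, Ube2j1, Erlec1, Vcp, Edem2, Pdia5 and Ppib were not marked there. The 1 other array marked was 4.5 g/l replicate 3 for Derl3, the highest of its group at 5.37 (4.86 to 5.05 in the others).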

How the results depend on the processing

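Leaving out each array in turn gave 26 to 33 genes as lower, 1 as higher, 12 to 13 chaperones, 6 to 10 disulfide enzymes and 8 to 10 degradation genes as lower, a median log2 difference of -0.73 to -0.53, and 2514 to 5295 for all genes passing the test. With array weights 5419 of all genes passed, against 3444. The exact rank-sum test passed 6 ER genes as lower (1 chaperone, 1 disulfide enzyme and 4 degradation genes) and 1993 of all genes. Against a fold of 1.2, 11 were lower (5, 2 and 4 by role), 0 higher (Edem3 no longer passed), and for all genes passing the test the count was 454. The other settings (trend with robust moderation, the dim filter, 3 scalings, the mean of probe sets, the replicate block) lost none of the calls, and all but the scalings by quantiles and cyclic loess, the mean of probe sets and the block added Pdia5, Nploc4 or both. Signs turned only for genes that did not pass: the log2 difference of Erlec1 was 0.0131 after quantile normalization and 0.0212 after cyclic loess, the log2 difference of Dnajc10 -0.0332 with median centring and -0.0325 with array weights, the log2 difference of Ube2j1 -0.0338 with median centring, and the log2 difference of Vcp 0.0052 with the mean of its probe sets; leaving out arrays they ran from -0.0262 to 0.0360, -0.0451 to 0.0392, -0.0103 to 0.0412 and -0.0602 to 0.0026. With the replicate number as a block, 30 ER genes were lower and 1 higher, and 3130 of all genes passed. Deviations of same-numbered arrays correlated by -0.0458 to 0.173. Such correlations over all genes cannot show whether the numbers pair the samples.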
